A study of Mus musculus with 8 samples.

Results

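The replication-dependent histone genes of the mouse were taken as every gene in the expression table whose symbol begins with Hist1h, Hist2h, Hist3h or Hist4h. The rule found 69 of the 20153 gene identifiers in the table: 6 linker histone H1 genes, 20 H2A genes, 18 H2B genes, 12 H3 genes and 13 H4 genes. In the GENCODE M21 annotation 66 of them are protein-coding, the H2A entries Hist1h2aj and Hist1h2al are pseudogenes and the entry labelled Hist2h2bb is a long noncoding RNA. RNA had been sequenced from 8 libraries in 4 groups of 2 that compare germ cells of the embryo with germ cells made in culture and with a pluripotent line derived from germ cells. Each value is an FPKM, the number of fragments per kilobase of transcript scaled to a library's mapped fragments.

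The embryonic germ cell (EGC) libraries came from lines 4 and 7, pluripotent lines derived from sorted primordial germ cells (PGCs) of embryonic day 9.5, of the Oct4gfpXCD1 strain, at passage 6, with 500 cells per library, and the shared protocol describes EGC growth in serum and LIF on mouse embryonic fibroblasts. The PGC-like cells (PGCLCs) were made from BVSC embryonic stem cells, which were first turned into epiblast-like cells and then grown as aggregates; the passage given is 21, and 300 to 500 PGCLCs went into each library. The iPGCs were made from the same BVSC stem cells at passage 21 by a hanging drop method, with 1500 cells per library. The PGCs were endogenous cells of embryonic day 9.5, of the Oct4gfpXCD1 strain, at passage 0, with about 250 cells per library. The EGC and PGC groups therefore share a strain that the PGCLC and iPGC groups do not, so strain and group cannot be told apart between them. Whether the embryos were pooled, and how PGCLCs and iPGCs were purified, is not given in the sources used here. Total RNA was amplified in all 8 libraries.

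Replication-dependent histone genes supply the core histones H2A, H2B, H3 and H4, around which DNA is wrapped into nucleosomes, and the linker histones H1, which bind the DNA between nucleosomes. Their transcription and the stability of their mRNA peak in S phase, when new DNA has to be packaged, and most of their mRNAs end in a conserved stem-loop instead of a poly(A) tail. That stem-loop is bound by SLBP and is cut by a complex with the U7 small nuclear RNA, and some histone genes can also make longer polyadenylated transcripts in non-dividing cells. Migrating mouse PGCs have been reported to accumulate in the G2 phase of the cell cycle at some stages. Whether this holds for the PGCs of embryonic day 9.5 used here was not tested. Cell cycle phase was not measured in these libraries. How the RNA amplification was primed is not stated here. To what extent the values cover histone mRNA without a poly(A) tail is therefore unknown, for every sum and difference below.

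The stem-loop is the feature that sets these genes apart from other genes, so its sequence is shown for members with high or differing levels. A search for the 16-base stem-loop consensus after the stop codon, on the transcript strand of the GENCODE M21 models (GRCm38), found it in 42 of the 69 members and in 48 of 21951 protein-coding genes (0.219%). Of the 50 members whose model runs at least 50 bases past the stop codon, 42 held it, and 12 members have models that end at the stop codon. The stem-loops below run 5′ to 3′ with the searched letters in capitals.
Hist1h1e: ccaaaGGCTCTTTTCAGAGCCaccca
Hist1h1c: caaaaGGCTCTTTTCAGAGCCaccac
Hist2h2ac: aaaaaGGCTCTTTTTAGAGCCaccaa
Hist1h2ab: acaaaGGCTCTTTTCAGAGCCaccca
Hist1h2bf: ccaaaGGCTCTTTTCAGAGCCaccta
Hist1h2bm: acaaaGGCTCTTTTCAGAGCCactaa
Hist1h2bb: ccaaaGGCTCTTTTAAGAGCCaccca
Hist1h3c: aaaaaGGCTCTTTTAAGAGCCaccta
Hist1h4d: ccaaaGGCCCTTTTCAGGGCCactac
Hist1h4i: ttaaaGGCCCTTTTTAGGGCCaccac
The 33 elements of H1, H2A, H2B and H3 genes had 3 forms, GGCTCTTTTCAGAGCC in 26 genes, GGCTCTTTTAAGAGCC in 6 and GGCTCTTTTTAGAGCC in 1. The 9 elements of H4 genes had 2 other forms, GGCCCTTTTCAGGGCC in 7 genes and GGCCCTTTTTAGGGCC in 2.

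Read totals are not stated for these libraries. To approximate depth, a low nonzero FPKM value, times gene length less an assumed 200-base fragment, was taken as 1 read. The result was about 2.96 M reads in iPGC library 1, 8.39 M in PGCLC library 1 and 15.3 to 18 M in the other 6. One read in a gene of 400 bases is then worth about 1.69 FPKM in iPGC library 1, 0.596 in PGCLC library 1 and 0.278 to 0.327 elsewhere. On the log2(FPKM + 1) scale, the median tested gene lay lowest in PGC library 1, at 2.35, and highest in PGCLC library 1, at 3.02. The summed FPKM of 8 PGC markers was 61.3 and 125 in EGCs, 514 to 890 in PGCLCs, 419 and 504 in iPGCs, and 516 and 795 in PGCs. PGC library 1 held 114 FPKM over 4 measured macrophage and blood markers, 139 FPKM over 5 yolk sac and endoderm markers and 52.9 FPKM over 3 mesoderm markers. In PGC library 2 these sums were 5.56, 0.104 and 21.6 FPKM, with the macrophage markers Pf4 and Ptprc and the endoderm marker Afp listed at 0. The yolk sac and endoderm sum was 18.3 and 21 FPKM in EGCs, 2.36 and 40.7 FPKM in PGCLCs and 127 and 108 FPKM in iPGCs. In iPGCs it came mostly from Cldn6 (64.7 and 73.2 FPKM) and Spink3 (60.3 and 32.8 FPKM). The macrophage and blood sum was at most 0.308 FPKM in the 6 EGC, PGCLC and iPGC libraries, with Pf4, Fcer1g and Ptprc listed at 0 in each, and the part of these cells in the histone values was not tested. The sum of 4 fibroblast markers was 0.977 and 3.56 FPKM in EGCs and between 0 and 7.72 FPKM in the other groups.

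Of the 69 members, 57 had a value above 0 in at least 1 library and 12 were listed at 0 in all 8. In total 36 reached 1 FPKM in at least 2 libraries and were tested: 5 of 6 H1 genes, 8 of 20 H2A, 13 of 18 H2B, 5 of 12 H3 and 5 of 13 H4. Histone genes of one class have near-identical coding sequences, so many 50-base reads match several of them. Sequence uniqueness was taken as the share of a gene's 50-base windows that occur in the transcripts of no gene elsewhere. Genes that overlap its locus were not counted, so windows shared only with them pass as unique. Its median was 60.2% in the 36 tested members, 54.2% in the 21 detected members that were not tested and 8.1% in the 12 listed at 0, of which 10 were under 15%. The 12 members at 0 were 7 H2A entries (Hist1h2ah, the pseudogene Hist1h2aj, Hist1h2an, Hist1h2ao, Hist1h2ap, Hist2h2aa1 and Hist2h2aa2), 2 H2B genes (Hist1h2bq and Hist1h2br), the H3 gene Hist2h3b and the H4 genes Hist1h4b and Hist1h4m. Median uniqueness was 98.9% in H1 genes, 60.5% in H4, 56% in H2B, 42.8% in H3 and 26.8% in H2A. Across the 69 genes, Spearman's rho between uniqueness and mean FPKM was 0.468, as a description of genes that share sequence and libraries. Values of single H2A, H2B, H3 and H4 genes are therefore uncertain, because reads shared between copies can be split among them. The H1 genes are less subject to this limit but not free of it. Hist1h1d shares 131 windows with Hist1h1e and 105 with Hist1h1c. The models of Hist1h1c, Hist1h1e and Hist1h1d run 840, 1153 and 4884 bases past the stem-loop. Their unique shares are therefore taken over much more than the coding sequence. The model of Hist1h1e also overlaps Hist1h2be and Gm11398.

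**Figure D1:**
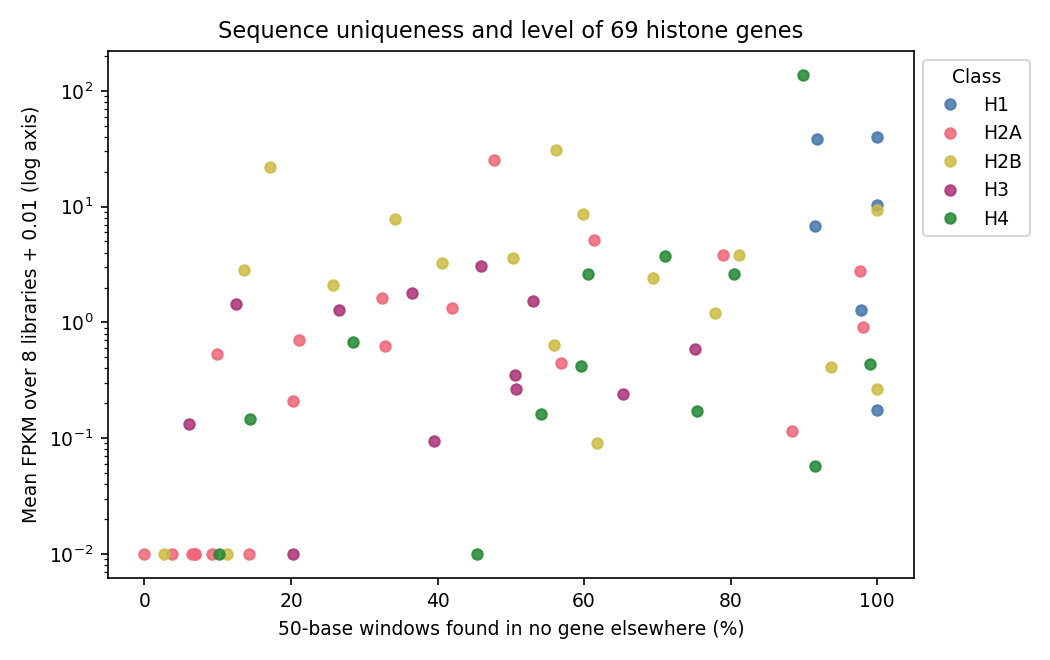
Mean FPKM over the 8 libraries plus 0.01 (vertical log axis) against the share of unique 50-base windows in percent (horizontal axis) for 69 histone genes, 1 point per gene, coloured by class. The 12 genes listed at 0 lie along the bottom, 10 of them under 15% unique windows.

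The summed level of all 69 histone genes was 227 and 562 FPKM in EGC lines 4 and 7, 257 and 269 FPKM in PGCLCs, 429 and 1101 FPKM in iPGCs, and 155 and 182 FPKM in PGCs. All 6 libraries of cultured cells lay above both PGC libraries. The group means were 2.34 times (EGC), 1.56 times (PGCLC) and 4.54 times (iPGC) the PGC mean. The libraries of 1 group differed much, by 2.47 times in EGCs and 2.57 times in iPGCs, against 1.05 times in PGCLCs and 1.18 times in PGCs. Against the PGC mean, iPGC library 1 alone was 2.55 times and iPGC library 2 was 6.53 times, EGC line 4 was 1.35 times and EGC line 7 was 3.33 times. When all libraries were scaled to the same total FPKM, PGCLC libraries 1 and 2 were 1.03 and 1.44 times the PGC mean, and PGCLC library 1 no longer lay above both PGC libraries (908 per 1000000 FPKM, against 855 and 910 in PGCs). In these bulk libraries, fewer cells in S phase and less histone RNA per cell cannot be told apart.

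The sums of the H1, H2A, H2B and H4 classes were higher in every cultured library than in both PGC libraries, but for H1, H2A and H4 this rested on the most abundant gene of the class. Differences between the classes were not tested. The H2A sum was 23.4 and 96.5 FPKM in EGCs, 26.6 and 15.3 FPKM in PGCLCs and 47.1 and 126 FPKM in iPGCs, with 4.21 and 6.53 FPKM in PGCs, so that the group means were 11.2, 3.9 and 16.1 times the PGC mean. Without Hist1h2ak, its most abundant gene, the H2A sum was 3.25 and 52 FPKM in EGCs, 16.5 and 4.82 FPKM in PGCLCs and 23.9 and 35.2 FPKM in iPGCs, with 3.92 and 5.33 FPKM in PGCs. The group means were then 5.97, 2.3 and 6.39 times the PGC mean, EGC line 4 lay below both PGC libraries and PGCLC library 2 lay between them. The H2B sum was 52 and 140 FPKM in EGCs, 70.5 and 76.2 FPKM in PGCLCs and 116 and 253 FPKM in iPGCs, with 38.6 and 42.7 FPKM in PGCs. The H1 sum was 63.5 and 92.1 FPKM in EGCs, 71.6 and 82.2 FPKM in PGCLCs and 110 and 269 FPKM in iPGCs, with 23.7 and 59.8 FPKM in PGCs. For H1 and H2B EGC line 4 was the cultured library nearest to the PGCs. Without Hist1h1b, 1 EGC and 1 PGCLC library no longer had an H1 sum above both PGC libraries, while the H2B sums without Hist1h2bm were still all above them as deposited. Scaled to a common total of 1000000 FPKM, the H2B sum without Hist1h2bm was 172 in PGCLC library 1. This value lay between those of PGC libraries 1 and 2 (145 and 210). All these H2B sums include the entry labelled Hist2h2bb, a long noncoding RNA in M21, and none was taken without it. That entry had 8.62 and 14.5 FPKM in PGCs and 0.294 and 0.0597 FPKM in PGCLCs, so it lowers the H2B sums of PGCLCs relative to PGCs. The H4 sum was 84.3 and 217 FPKM in EGCs, 83.1 and 90.4 FPKM in PGCLCs and 149 and 424 FPKM in iPGCs, with 74.2 and 69.1 FPKM in PGCs. Without Hist1h4d it was 1.52 and 8.79 FPKM in EGCs, 3.99 and 12.9 FPKM in PGCLCs and 8.77 and 26.5 FPKM in iPGCs, with 18.4 and 6.58 FPKM in PGCs, so that all 3 groups overlapped the PGCs. The EGC, PGCLC and iPGC means were then 0.412, 0.675 and 1.41 times the PGC mean, against 2.1, 1.21 and 4 times with it. The H3 sum was 4.16 and 16.3 FPKM in EGCs, 5.68 and 5.08 FPKM in PGCLCs and 6.36 and 29.5 FPKM in iPGCs, with 14.3 and 4.01 FPKM in PGCs, and the groups overlapped. H3 genes made up 1.48% to 9.25% of the histone sum of a library, the highest share in PGC library 1, and H4 genes 32.3% to 47.9%. After scaling to a common total of 1000000 FPKM, the H2A sums of all 6 cultured libraries (72.3 to 581) were above those of the PGCs (23.2 and 32.6), which again held for 1 EGC, 1 PGCLC and both iPGC libraries without Hist1h2ak, while the H1 and H4 sums of PGCLCs overlapped those of PGCs.

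**Figure D2:**
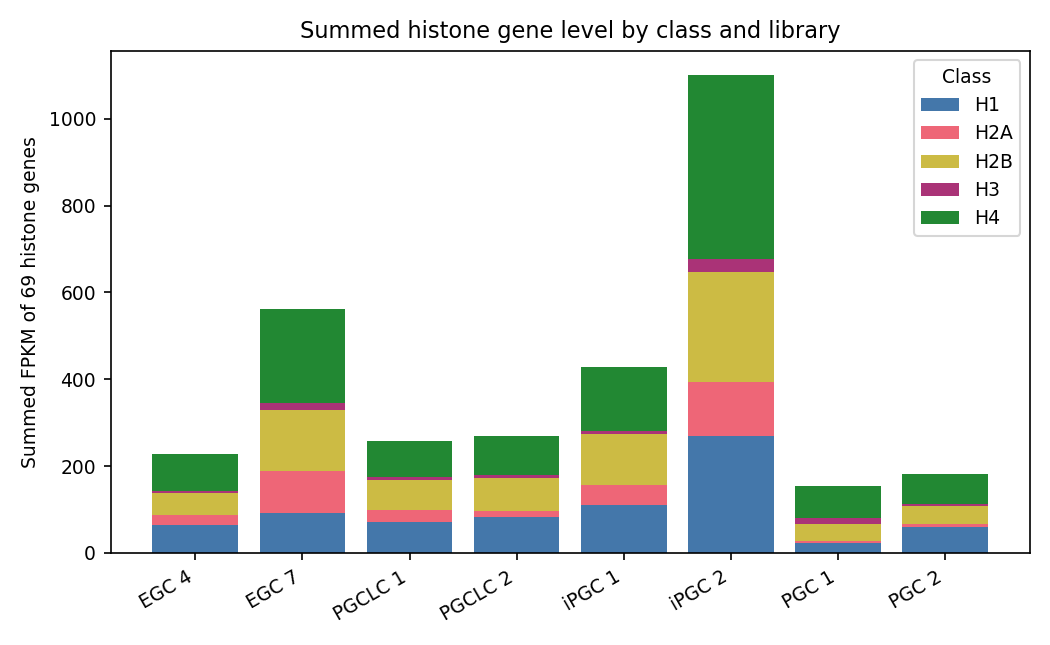
Summed FPKM of the 69 histone genes (vertical axis) in each of the 8 libraries, from EGC line 4 on the left to PGC library 2 on the right, stacked by class. The tallest bars are iPGC library 2 at 1101 FPKM and EGC line 7 at 562 FPKM, and the lowest are the PGC libraries at 155 and 182 FPKM.

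Gene by gene, 2 members passed the test in comparisons with PGCs, the H2A gene Hist1h2ak in EGCs and iPGCs and the H2B gene Hist1h2bf in iPGCs. The test was limma on log2(FPKM + 1), with p-values adjusted by the Benjamini-Hochberg method over the 11083 genes tested. In EGCs against PGCs 1 of 36 members was called higher and 0 lower, where 0.523% of all genes were called higher and 0.217% lower. In iPGCs against PGCs 2 of 36 were called higher and 0 lower, where 0.749% of all genes were called higher and 0.0451% lower. In PGCLCs against PGCs none was called by limma, where 0.938% of all genes were called higher and 0.117% lower. Counts this small can be read only against those shares. With a pseudocount of 0.1 the counts were 2 in EGCs, 2 in PGCLCs and 4 in iPGCs, and with one of 5 they were 0 in each, so the single calls depend on how low values are treated. The 3 comparisons share their PGC libraries.

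Most tested members had a higher level in EGCs and iPGCs than in PGCs. The log2 difference was positive for 30 of 36 tested members in EGCs, 25 in PGCLCs and 32 in iPGCs against PGCs. These are 83.3%, 69.4% and 88.9% of the members, where 52.3%, 65.9% and 66.4% of all tested genes had a positive difference, so the PGCLC share was near that of all genes. Under quantile normalization the counts were 25, 22 and 27, where 48.6%, 48.2% and 49% of all genes were positive, and with equal library medians 30, 19 and 28, where 48.7%, 45.9% and 48.9% were. The median log2 difference was 0.70 in EGCs, 0.68 in PGCLCs and 1.81 in iPGCs, against medians of 0.07, 0.44 and 0.47 over all tested genes. At an unadjusted p under 0.05 there were 8 members in EGCs, 6 in PGCLCs and 19 in iPGCs, where 17.2%, 19.5% and 19.5% of all genes passed. Both iPGC libraries lay above both PGC libraries for 24 of the 36 members and below for 1, where the shares over all genes were 39.4% and 13.1%. For EGCs these counts were 13 above and 2 below, with shares of 24.1% and 20%, and for PGCLCs 15 and 2, with shares of 33.5% and 11.8%. Without PGC library 1, the PGC library with the higher macrophage and endoderm sums, the medians were 0.39 in EGCs, 0.44 in PGCLCs and 1.39 in iPGCs. The EGC median was 1.31 without line 4 and 0.21 without line 7. With no filter on low values the median over the 57 detected members was 0.36 in EGCs, 0.24 in PGCLCs and 0.63 in iPGCs, a set in which members at 0 in both groups count as no difference. Several tested members were under 1 FPKM in both PGC libraries and passed the filter only through cultured libraries, which favours a positive sign. These were Hist1h1d, Hist1h2aa, Hist1h2ab, Hist1h2ae, Hist1h2bf, Hist1h2bj, Hist1h2bk, Hist1h2bp, Hist1h3d, Hist1h3e, Hist1h3g and Hist1h4f. The counts and medians of tested members above include them and cannot be read apart from this. Over all 69 members, the mean against PGCs was higher for 38 in EGCs, 33 in PGCLCs and 45 in iPGCs. It was lower for 13, 18 and 9, and the rest were at 0 in both groups.

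By class, the median log2 difference in iPGCs against PGCs was 1.95 for H1, 1.86 for H2A, 1.79 for H2B, 1.03 for H3 and 1.87 for H4. In EGCs it was 0.53 for H1, 1.08 for H2A, 0.81 for H2B, 0.62 for H3 and 0.27 for H4, the last being -0.08 under quantile normalization. In PGCLCs it was 0.76 for H1, 0.36 for H2A, 1.08 for H2B, 0.64 for H3 and 0.40 for H4. With equal library medians those of H2A and H4 in PGCLCs were -0.18 and -0.14. A direction for these classes in PGCLCs therefore cannot be given.

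**Figure D3:**
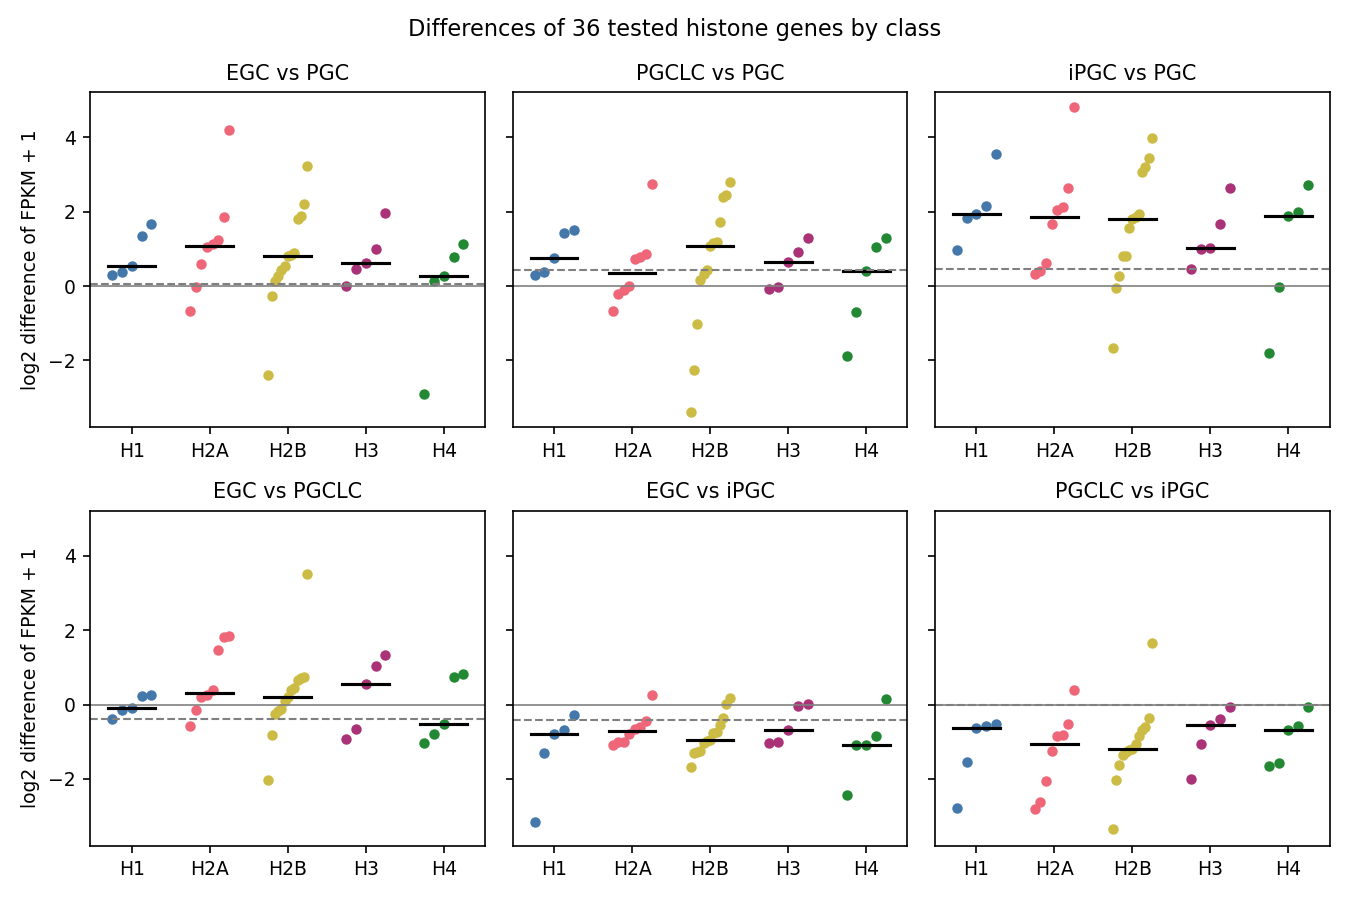
Log2 difference of FPKM + 1 (vertical axis) of the 36 tested histone genes by class, 1 panel per comparison, with the first-named group over the second. Black bars are class medians, the solid grey line is 0 and the dashed grey line is the median over all 11083 tested genes. In iPGC vs PGC every class median lies above the dashed line at 0.47.

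The 3 cultured groups were also compared with each other. In EGCs against PGCLCs 0 of 36 members were called by limma, where 0.0632% of all genes were called higher and 0.0361% lower, with 1 member at an unadjusted p under 0.05 and 13.9% of all genes. In EGCs against iPGCs 0 were called, where 0.0632% and 0.0541% of all genes were called, with 2 members at that p and 10.3% of all genes. In PGCLCs against iPGCs 0 were called, where 0.00902% of all genes were called each way, with 9 members at that p and 4.68% of all genes. The median log2 difference of the members was 0.23 in EGCs against PGCLCs, -0.82 in EGCs against iPGCs and -0.96 in PGCLCs against iPGCs, beside -0.38, -0.40 and -0.003 over all genes. Both PGCLC libraries lay below both iPGC libraries for 22 of 36 members, where 19.6% of all genes did, and both EGC libraries lay below both iPGC libraries for 13, where 39.5% did. Without iPGC library 2 the median for PGCLCs over iPGCs was -0.68. That library was the highest of the 8 libraries for 22 of the 36 tested members and lay above iPGC library 1 for 35. EGC line 7 lay above line 4 for 30 of the 36.

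**Figure D4:**
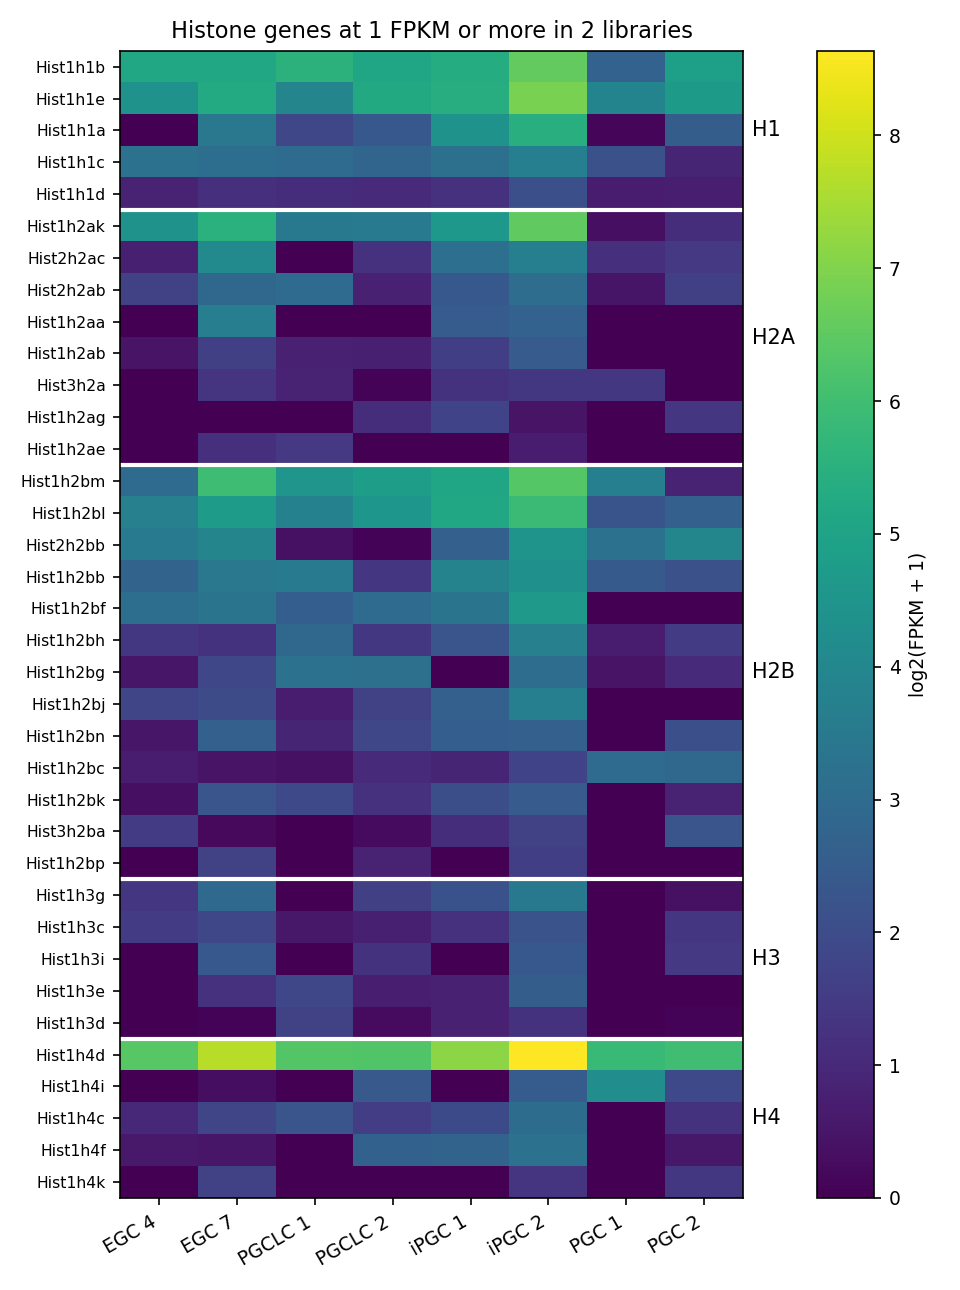
Level of the 36 tested histone genes as log2(FPKM + 1) in each library, with genes as rows ordered by class and by mean level, and libraries as columns from EGC line 4 to PGC library 2. The row of Hist1h4d is bright in every column, and the rows of Hist1h2ak and Hist1h2bf are darkest in the PGC columns.

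Among linker histones, Hist1h1b and Hist1h1e had the highest mean FPKM. The M21 models of H1 genes run from 741 bases (Hist1h1a) to 7425 bases (Hist1h1d). FPKM divides by the length of the model used, so a shorter mRNA would have another value and the order of these genes is uncertain. Hist1h1b (chr13:21779883-21780625, single exon, all windows unique) had 34.3 and 35.4 FPKM in EGCs, 46.4 and 32.8 in PGCLCs and 40.1 and 93.7 in iPGCs, against 5.64 and 28.4 in PGCs. All 6 cultured libraries lay above both PGC libraries, with PGC library 1 far below library 2. Its log2 difference was 1.36 ± 0.72 (SE) in EGCs, 1.52 ± 0.72 in PGCLCs and 2.16 ± 0.72 in iPGCs, with limma adjusted p of 0.386, 0.298 and 0.162. Hist1h1e had 20.1 and 37.6 FPKM in EGCs, 14.3 and 37.2 in PGCLCs and 40.8 and 118 in iPGCs, against 14 and 25 in PGCs. Its M21 model overlaps Hist1h2be and Gm11398, so with no strand information its reads cannot be told apart from theirs.

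Hist1h1a was the most uneven linker gene. It had 0 and 10.1 FPKM in EGCs, 2.58 and 4.23 in PGCLCs and 19.9 and 41.4 in iPGCs, against 0.112 and 4.88 in PGCs. Its iPGC libraries were the highest of the 8, and its log2 difference for EGCs over iPGCs was -3.16 ± 1.19 (limma adjusted p = 0.426). Hist1h1c, a linker gene known to make polyadenylated RNA in some cells, had 8.36 and 7.67 FPKM in EGCs, 7.15 and 6.1 in PGCLCs and 8.13 and 12.3 in iPGCs, against 3.41 and 0.848 in PGCs. Replicates of Hist1h1c lay close together in the cultured groups, and both PGC libraries were below all of them, though limma gave adjusted p of 0.229 for EGCs and 0.148 for iPGCs. Hist1h1d had 0.762 and 1.25 FPKM in EGCs, 1.2 and 1.07 in PGCLCs and 1.36 and 3.35 in iPGCs, against 0.6 and 0.663 in PGCs. The testis-specific linker gene Hist1h1t had 0.853 FPKM in PGCLC library 2 and 0.464 in iPGC library 2 and was listed at 0 in the other 6.

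Among H2A genes, Hist1h2ak differed most. It had 20.1 and 44.6 FPKM in EGCs, 10.1 and 10.5 in PGCLCs and 23.2 and 90.6 in iPGCs, against 0.286 and 1.2 in PGCs. No cultured library came near the PGC libraries, whose values lie near the worth of a few reads. The log2 difference on the FPKM + 1 scale was 4.20 ± 0.74 (SE) in EGCs (limma adjusted p = 0.0488), 4.81 ± 0.74 in iPGCs (adjusted p = 0.0331) and 2.75 ± 0.74 in PGCLCs (adjusted p = 0.101). The EGC call was lost when any of the 8 libraries was left out, with an adjusted p between 0.0346 and 0.333 over 17 alternatives, 4 of which kept it. The iPGC call was lost when any library but PGC library 2 was left out, with a difference of 3.85 without iPGC library 2 and an adjusted p between 0.0258 and 0.303 over 18 alternatives, 5 of which kept it. Hist1h2ak made up 86.1% and 46.2% of the H2A sum in EGCs, 38.1% and 68.6% in PGCLCs and 49.3% and 72% in iPGCs, against 6.8% and 18.4% in PGCs. The gene (chr13:21753435-21753827, minus strand, single exon, coding sequence only in M21) overlaps Gm44454. Of its windows 47.7% are unique, and 149 windows are shared with Hist1h2ao, which was listed at 0 in every library. How the authors divided reads between such copies is not given in the sources used here.

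The promoter of Hist1h2ak in RefSeq (chr13:21753863-21754162, minus strand, GRCm38.p6, 250 bases before to 50 after the annotated start) is shown because the gene was called in both EGCs and iPGCs. Its capitals mark CCAAT and TATAAA, the motifs named CCAAT box and TATA box, read on either strand.
Hist1h2ak promoter: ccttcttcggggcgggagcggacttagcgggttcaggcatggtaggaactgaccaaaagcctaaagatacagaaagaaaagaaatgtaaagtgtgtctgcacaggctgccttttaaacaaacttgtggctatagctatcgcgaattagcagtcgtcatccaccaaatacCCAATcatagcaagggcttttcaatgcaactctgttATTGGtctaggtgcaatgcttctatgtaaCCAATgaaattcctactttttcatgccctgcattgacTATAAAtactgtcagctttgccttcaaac
It holds CCAAT 3 times, at -81, -45 and -16 from the annotated start, and TATAAA once, at 21 bases past that start.

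Other H2A genes were lower and less even. Hist2h2ac had 0.697 and 16 FPKM in EGCs, 0 and 1.37 in PGCLCs and 7.89 and 12.1 in iPGCs, against 1.29 and 1.67 in PGCs. Its iPGC libraries lay above the PGC libraries, while EGC lines 4 and 7 lay on either side of them. Hist2h2ab had 2.19 and 6.47 FPKM in EGCs, 7.06 and 0.751 in PGCLCs and 4.21 and 7.48 in iPGCs, against 0.395 and 2.09 in PGCs. Hist1h2ab had 0.361 and 2.11 FPKM in EGCs, 0.729 and 0.708 in PGCLCs and 2.05 and 4.54 in iPGCs, and was listed at 0 in both PGC libraries. Hist1h2aa, known as a testis-specific H2A gene in the mouse, had 11.9 FPKM in EGC line 7 and 4.76 and 5.61 FPKM in iPGCs and was listed at 0 in the other 5 libraries, PGCs included. Of its windows 97.7% are unique. Hist3h2a, which can make polyadenylated RNA, had 0 and 1.54 FPKM in EGCs, 0.824 and 0.0698 in PGCLCs and 1.42 and 1.65 in iPGCs, against 1.66 and 0 in PGCs. Hist1h2ae had 0 and 1.23 FPKM in EGCs, 1.7 and 0 in PGCLCs and 0 and 0.57 in iPGCs, and was listed at 0 in both PGC libraries.

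The H2B genes had the most tested members and went in both directions. Hist1h2bf had 7.79 and 9.11 FPKM in EGCs, 4.98 and 7.09 in PGCLCs and 8.9 and 24.5 in iPGCs, and was listed at 0 in both PGC libraries, so no fold is given. Its log2 difference on the FPKM + 1 scale was 3.99 ± 0.64 (SE) in iPGCs (limma adjusted p = 0.0396), 3.24 ± 0.64 in EGCs (adjusted p = 0.0672) and 2.80 ± 0.64 in PGCLCs (adjusted p = 0.0748). That size depends on the pseudocount, being 7.22 with 0.1 and 2.02 with 5 in iPGCs. The iPGC call was lost when any library but PGC library 2 was left out, with an adjusted p between 0.0147 and 0.35 over 18 alternatives, 5 of which kept it. The gene (chr13:23573736-23574196, minus strand, single exon) has 34.2% unique windows and shares 197 with Hist1h2bg. Its RefSeq promoter (chr13:23574158-23574457, minus strand, GRCm38.p6) holds CCAAT 4 times, at -171, -146, -117 and -83, and TATAAA at -209 on the opposite strand.
Hist1h2bf promoter: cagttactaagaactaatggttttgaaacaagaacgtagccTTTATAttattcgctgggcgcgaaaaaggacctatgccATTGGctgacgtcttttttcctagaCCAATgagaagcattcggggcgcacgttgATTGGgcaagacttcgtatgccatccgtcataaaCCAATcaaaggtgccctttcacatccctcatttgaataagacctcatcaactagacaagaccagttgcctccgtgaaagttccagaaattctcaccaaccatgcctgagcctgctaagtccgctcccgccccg

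Among the other H2B genes, Hist1h2bl had 12.6 and 25.9 FPKM in EGCs, 13 and 22 in PGCLCs and 35 and 57.9 in iPGCs, against 3.76 and 5.32 in PGCs. Every cultured library was above both PGC libraries, and the difference was 3.07 ± 0.57 in iPGCs (limma adjusted p = 0.0551), with 17.2% unique windows in the gene. Hist1h2bm, the most abundant H2B gene, had 7.12 and 61 FPKM in EGCs, 21.6 and 27.4 in PGCLCs and 33.7 and 80.8 in iPGCs, against 12.2 and 0.787 in PGCs. Here the PGC libraries differed by more than 10-fold and EGC line 4 lay between them. Hist1h2bb had 5.78 and 10.1 FPKM in EGCs, 10.9 and 1.56 in PGCLCs and 13.5 and 19.1 in iPGCs, against 4.47 and 3.46 in PGCs. Hist1h2bj had 2.48 and 2.94 FPKM in EGCs, 0.621 and 2.15 in PGCLCs and 5.33 and 12.4 in iPGCs, and was listed at 0 in both PGC libraries (iPGC adjusted p = 0.0657 in limma). Hist1h2bg had 0.431 and 2.6 FPKM in EGCs, 8.3 and 8.1 in PGCLCs and 0 and 7.59 in iPGCs, against 0.384 and 1.03 in PGCs, so its PGCLC libraries alone were both high.

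Hist1h2bc went the other way. It had 0.591 and 0.385 FPKM in EGCs, 0.297 and 1.03 in PGCLCs and 0.844 and 2.33 in iPGCs, against 7.03 and 6.59 in PGCs. Both PGC libraries lay above all 6 others and close to each other. Macrophage and blood markers summed to 114 and 5.56 FPKM in PGC libraries 1 and 2, and the part of such cells in the values of Hist1h2bc was not tested. Its log2 difference was -2.39 ± 0.59 (SE) in EGCs, -2.27 ± 0.59 in PGCLCs and -1.66 ± 0.59 in iPGCs, with limma adjusted p of 0.101, 0.0956 and 0.18, so it did not pass the test. Hist1h2bc is known to make polyadenylated RNA in some cells, and its M21 model (chr13:23684199-23692908, plus strand, 2 exons) holds no stem-loop match. Hist2h2be, another H2B gene known for polyadenylated RNA, had 0 and 0.0706 FPKM in EGCs, 0 and 0.0254 in PGCLCs and 0.594 and 0.359 in iPGCs, against 0 and 0.977 in PGCs. The testis-specific H2B gene Hist1h2ba had 0.652 FPKM in EGC line 7 and was listed at 0 elsewhere.

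The entry labelled Hist2h2bb had 10.9 and 14.1 FPKM in EGCs, 0.294 and 0.0597 in PGCLCs and 5.32 and 21.1 in iPGCs, against 8.62 and 14.5 in PGCs. Both PGCLC libraries lay far below the other 6. Its log2 difference was -3.38 ± 0.71 for PGCLCs over PGCs (limma adjusted p = 0.0631), 3.51 ± 0.71 for EGCs over PGCLCs (adjusted p = 0.128) and -3.33 ± 0.71 for PGCLCs over iPGCs (adjusted p = 0.783). The identifier of this entry is the long noncoding RNA Gm42743 in M21, a transcript of 2 exons that overlaps Hist2h2bb (chr3:96269721-96279001). Whether the values are those of an H2B mRNA is therefore uncertain.

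H3 genes had low values throughout. Hist1h3g, the most abundant, had 1.55 and 6.77 FPKM in EGCs, 0 and 2.14 in PGCLCs and 3.52 and 10.2 in iPGCs, against 0 and 0.297 in PGCs. Both EGC and both iPGC libraries lay above the PGC libraries, with log2 differences of 1.97 ± 0.84 (limma adjusted p = 0.28) and 2.64 ± 0.84 (adjusted p = 0.146). Hist1h3c had 1.9 and 2.6 FPKM in EGCs, 0.486 and 0.699 in PGCLCs and 1.35 and 3.64 in iPGCs, against 0 and 1.6 in PGCs. Hist2h3c2 had 13.7 FPKM in PGC library 1 and 0.455 in iPGC library 2 and was listed at 0 in the other 6. This single value made the H3 sum of PGC library 1 higher than that of PGC library 2. Of the 12 H3 genes 7 were not tested, including Hist2h3b at 0 in every library.

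Hist1h4d was the most abundant of all 69 members and made up 75.2% to 98.2% of the H4 sum in a library. It had 82.7 and 208 FPKM in EGCs, 79.1 and 77.5 in PGCLCs and 140 and 397 in iPGCs, against 55.8 and 62.5 in PGCs. Every cultured library lay above both PGC libraries, with a log2 difference of 1.14 ± 0.59 in EGCs, 0.40 ± 0.59 in PGCLCs and 1.98 ± 0.59 in iPGCs (limma adjusted p of 0.372, 0.751 and 0.136). Relative to the median of all genes the PGCLC difference was -0.03. Its M21 transcript (chr13:23581598-23582735, plus strand, single exon) is 1138 bases long and runs 770 bases past the stem-loop, and 89.8% of its windows are unique. The FPKM divides by the length of the model used, so a shorter mRNA that ends at the stem-loop would have another value. Hist1h4i had 0 and 0.247 FPKM in EGCs, 0 and 4.3 in PGCLCs and 0 and 4.72 in iPGCs, against 17.7 and 2.77 in PGCs. Its log2 difference in EGCs was -2.91 ± 1.15 (limma adjusted p = 0.248), and the value in PGC library 1 stands apart. Hist1h4f had 0.493 and 0.423 FPKM in EGCs, 0 and 5.38 in PGCLCs and 5.68 and 8.36 in iPGCs, against 0 and 0.466 in PGCs. Hist1h4c had 0.979 and 2.52 FPKM in EGCs, 3.89 and 1.94 in PGCLCs and 2.82 and 7.34 in iPGCs, against 0 and 1.38 in PGCs, and Hist4h4 reached 0.376 FPKM in iPGC library 2 only.

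Many H2A and H2B genes lie head to head and share the stretch between them. In M21, 13 such pairs of members were 175 to 305 bases apart. The H2B gene had the higher mean FPKM over the 8 libraries in 8 pairs, 1 of them the pair with the pseudogene Hist1h2aj, the H2A gene in 3, and both were listed at 0 in 2. Hist1h2bf averaged 7.79 FPKM and its partner Hist1h2ad 0.612 FPKM. Hist1h2ad had 4.89 FPKM in PGCLC library 1 and was listed at 0 in the other 7 libraries. Hist1h2ak averaged 25.1 FPKM and its partner Hist1h2bn 2.84 FPKM, and Hist1h2bm averaged 30.6 FPKM while Hist1h2aj, its partner by position but a pseudogene in M21, was listed at 0. Uniqueness was near equal in the first of these pairs, with 34.2% in Hist1h2bf and 32.9% in Hist1h2ad. It differed in the others, with 47.7% in Hist1h2ak and 13.6% in Hist1h2bn, and 56.2% in Hist1h2bm and 6.93% in Hist1h2aj.

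**Figure D5:**
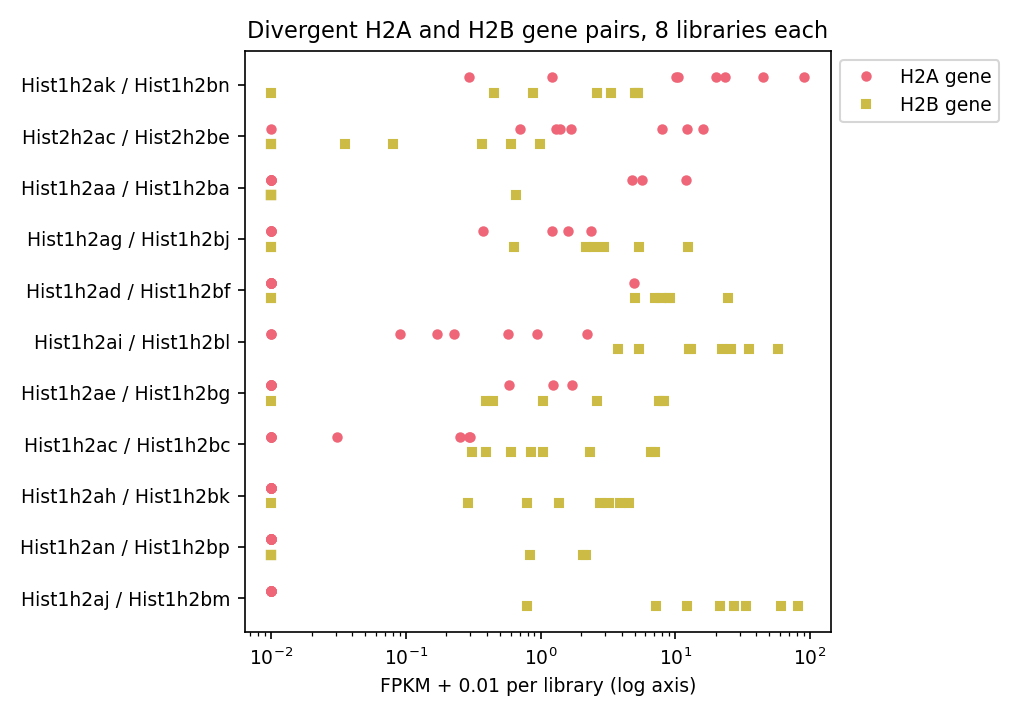
FPKM plus 0.01 in each of the 8 libraries (horizontal log axis) for 11 divergent gene pairs, with circles for the H2A gene and squares for the H2B gene. In the pair of Hist1h2aj, a pseudogene in M21, and Hist1h2bm all circles sit at 0.01 and the squares reach 80.8 FPKM, and in the pair of Hist1h2ak and Hist1h2bn the circles reach 90.6 FPKM.

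RefSeq promoters could be matched for 61 members. CCAAT, searched on both strands, was present in all 6 H1, 17 H2A, 16 H2B and 10 H3 promoters and in 3 of 12 H4 promoters, against 37.4% of all 32851 promoters in the table. TATAAA was present in 57.4% of the 61 member promoters and 13.6% of all promoters. The octamer ATTTGCAT was present in 7 of 17 H2A and 6 of 16 H2B promoters, in none of the H1, H3 and H4 promoters and in 1.74% of all promoters. Promoters of head-to-head H2A and H2B genes overlap, so 1 site can be counted for both genes of a pair. The motifs do not overlap in the promoters printed above, and a match is a description of the letters only.

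Genes that act with histones were read from 4 lists. None of the 18 genes for histone mRNA transcription and processing, 11 tested variant histone genes outside the clusters, 20 histone chaperone genes and 23 tested S phase genes was called by limma in any of the 6 comparisons. At an unadjusted p under 0.05 there were 0, 4, 3 and 3 genes of these lists in EGCs against PGCs, 2, 4, 2 and 3 in PGCLCs against PGCs, and 1, 1, 3 and 1 in iPGCs against PGCs, where 17.2%, 19.5% and 19.5% of all genes passed. In EGCs against PGCLCs there were 1, 2, 1 and 1, in EGCs against iPGCs 1, 4, 1 and 1, and in PGCLCs against iPGCs 1, 0, 0 and 0, where 13.9%, 10.3% and 4.68% of all genes passed. The counts of the chaperone and S phase lists are at or below those shares in each comparison, while those of the variant histones are above them in 4. The S phase list summed to 507 and 596 FPKM in EGCs, 738 and 979 in PGCLCs and 784 and 800 in iPGCs, against 744 and 831 in PGCs. Its median log2 difference was -0.37 in EGCs, 0.19 in PGCLCs and 0.09 in iPGCs against PGCs, below the medians of the histone genes in each. Slbp, which encodes the stem-loop binding protein, had 17.2 and 30.1 FPKM in EGCs, 50.2 and 28.4 in PGCLCs and 30.5 and 47.3 in iPGCs, against 52.8 and 38.9 in PGCs. Cdk2, a kinase of S phase entry, had 14.8 and 5.55 FPKM in EGCs, 3.75 and 7.41 in PGCLCs and 4.91 and 10.7 in iPGCs and was listed at 0 in both PGC libraries (limma adjusted p of 0.0715, 0.0961 and 0.0802). Ssrp1, a subunit of the FACT chaperone, had 72.3 and 67.4 FPKM in EGCs, 68 and 52.3 in PGCLCs and 67.9 and 71.2 in iPGCs, against 157 and 175 in PGCs, with a log2 difference of -1.46 ± 0.36 in PGCLCs (adjusted p = 0.0865). H3f3b, which encodes an H3 variant made outside S phase as well, had 22.2 and 34 FPKM in EGCs, 57.3 and 46.3 in PGCLCs and 57.3 and 67.6 in iPGCs, against 21.6 and 15.1 in PGCs, with 1.73 ± 0.44 in iPGCs (adjusted p = 0.1).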

How the data were processed

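The deposited table holds FPKM for each of the 8 libraries, made by the authors with TopHat2 and Cufflinks on GRCm38 (mm10), per the submitters' processing notes (roles and versions unstated). Which annotation was used, and whether strand was, is not given in the sources used here. Per the labels, total RNA was amplified, sheared and sequenced as single-end reads of 50 bases, and 2 sequencing replicates were made per library. Spike-in RNA was not analysed here. Of 20171 entries, 18 extra entries of repeated identifiers were dropped, keeping the one with the highest mean, which left 20153. A gene was tested if 2 or more libraries reached 1 FPKM (11083 genes, 36 of them members). The test was limma 3.58.1 in R 4.3.3, with trended and robust variance, on log2(FPKM + 1), so differences of low genes are understated. The spread was estimated once over all 8 libraries (residual degrees of freedom 4, median prior 4.53). Two-sided p-values were Benjamini-Hochberg adjusted over all tested genes of a comparison, and 0.05 was the threshold. The step was tested on simulated data. An exact 0 may be a failed estimate and is written as listed at 0. Depth was approximated in single-transcript genes over 1000 bases. The 5% quantile of nonzero FPKM times length, less an assumed 200-base fragment, was taken as 1 read.

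The members and lists were chosen with earlier results of these data known, so no p is given over the members alone. Named members are those called, the top 3 of each class by mean level, all H1 genes, the largest differences of each comparison, testis-type genes and genes known to make polyadenylated RNA, and Hist1h2ab, Hist1h2bb, Hist1h2bj, Hist1h2al, Hist1h2ad, Hist1h4a and Slbp were added after their values were seen. Lengths, coordinates and windows came from GENCODE M21, where 62 members matched by identifier and 7 by symbol, and promoters from RefSeq (GRCm38.p6), in Python 3.11.15 with pandas 2.3.3. The labels call the 2 samples of a group biological replicates without naming the culture or embryos of each, so p-values measure the spread between these samples. Alternatives were the pseudocount, the filter, scaling, the variance trend, the groups fitted, a replicate block, each library left out and, chosen after seeing the data, the members kept.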

Additional observations from a re-analysis of the deposited data

How the results depend on the processing

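The number of members called moved easily. In EGCs against PGCs (1) it was 2 with a pseudocount of 0.1 and 0 with a pseudocount of 5, with no filter, under quantile normalization, with no variance trend, with only the groups compared, with only members of at least 50% unique windows and without any single library (range 0 to 0). In iPGCs against PGCs (2) it was 4 with a pseudocount of 0.1, 0 with a pseudocount of 5, with no filter, under quantile normalization, with equal library medians, with only the groups compared and with only members of at least 50% unique windows, and 0 to 3 without single libraries, above 0 only without PGC library 2. The 50% setting leaves both called genes out by its construction. In PGCLCs against PGCs (0) it was 2 with a pseudocount of 0.1, where Hist1h2bf and the entry labelled Hist2h2bb were called, and 0 to 0 without single libraries. The 3 comparisons among cultured groups had 0 calls in each alternative run. The median log2 difference in PGCLCs against PGCs (0.68) was 1.52 with a pseudocount of 0.1, 0.22 with 5, 0.24 with no filter, 0.11 under quantile normalization, 0.14 with equal library medians, 0.42 with members of at least 50% unique windows and 0.44 to 0.78 without single libraries. In iPGCs against PGCs (1.81) it was 0.76 with a pseudocount of 5, 0.63 with no filter and 1.32 to 2.29 without single libraries, and in EGCs against PGCs (0.70) it was 1.34 with a pseudocount of 0.1, 0.27 with 5, 0.36 with no filter and 0.21 to 1.31 without single libraries. Without single libraries it was -0.26 to 0.75 in EGCs against PGCLCs (0.23), the lowest, without EGC line 7, being the only change of sign among the medians, -1.34 (without EGC line 7) to -0.28 (without iPGC library 2) in EGCs against iPGCs (-0.82) and -1.56 (without iPGC library 1) to -0.68 in PGCLCs against iPGCs (-0.96). The summed level over the PGC mean was 1.03 and 1.44 in PGCLC libraries 1 and 2 scaled to the same total FPKM, and 1.63 and 1.75 without Hist1h4d, against 1.53 and 1.60 as deposited. Without the most abundant gene of each class, chosen after seeing the data, the PGCLC mean over the PGC mean was 1.51 for H1 (1.84 with it), 2.3 for H2A (3.9), 1.43 for H2B (1.8), 0.478 for H3 (0.586) and 0.675 for H4 (1.21), the EGC ratio was 0.671 for H3 (1.11) and 0.412 for H4 (2.1), and the iPGC ratio stayed above 1 in each class. Leaving out the Hist2h2bb entry and summing repeated entries left every count as it was. The cause of these changes was not tested. With the replicate number as a block over the PGC, PGCLC and iPGC libraries, 0 members were called in iPGCs against PGCs. Deviations of same-numbered libraries correlated by -0.0295 for PGCLCs and PGCs, 0.00707 for iPGCs and PGCs and 0.0582 for PGCLCs and iPGCs. With 2 libraries per group these values cannot show whether same-numbered samples shared a culture or a day. The labels give no pairing beyond the number, and EGC lines carry other numbers. Short transcripts, shared sequence and about 2.96 M reads in iPGC library 1 limit the values of single low genes.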

Other observations

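Some histone genes had a value in 1 library and were listed at 0 in most others. Hist1h2al, which lies apart from the main cluster on chromosome 13 and is a processed pseudogene in M21 with 32.4% unique windows, had 12.2 FPKM in EGC line 7 and 0.624 FPKM in PGCLC library 2 and was listed at 0 in the other 6 libraries. Hist1h2ad had 4.89 FPKM in PGCLC library 1 and was listed at 0 in the other 7. Hist1h4a had 2.22 FPKM in EGC line 7, 0.73 FPKM in PGCLC library 2 and 0.35 FPKM in PGC library 2. Zfp473, which encodes a zinc finger protein of the U7 processing complex, had 4.21 to 10.9 FPKM in the EGC, PGCLC and iPGC libraries, against 44.1 and 5.65 FPKM in PGC libraries 1 and 2.

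The stem-loop consensus was also found in 6 protein-coding genes outside the members: H2afx, the H2A variant known for marking DNA breaks, H2bfm, Lyst, Atr, Mex3a and Btbd8. The number of members at 1 FPKM or more was 16 and 32 in EGC lines 4 and 7, 21 and 24 in PGCLCs and 27 and 40 in iPGCs, against 14 and 21 in PGCs.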
